A study of Mus musculus with 12 samples.

Results

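The genes described here are named for eukaryotic translation initiation and elongation factors, and are called translation factor genes. They include genes for kinases, binding proteins and modifying enzymes that act on these factors. They were chosen by symbol, as every protein-coding mouse gene of the RefSeq table for GRCm38.p6 whose symbol begins with Eif or Eef followed by a digit. This gave 71 of the 21887 protein-coding genes on chromosomes 1 to 19, X and Y. A further 14 pseudogenes and 1 long non-coding RNA with such symbols were left out. A gene was counted as holding a peak when a deposited interval overlapped the gene body, extended by 1 kb on each side, by at least 1 bp.

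R-loops were mapped by immunoprecipitation of DNA with S9.6, an antibody against RNA-DNA hybrids, in a study of R-loops and gene editing by adeno-associated virus vectors. The 12 libraries came from the mouse hepatoma line HEPA1-6 and from liver of C57/Bl6 mice, all of wild-type genotype, with neither the sex nor the age of the mice given. In each source, 2 libraries were S9.6 immunoprecipitates, 2 were immunoprecipitates treated with RNase H1, which degrades the RNA of a hybrid, and 2 were input DNA, which makes 6 groups. The data are 1 list of peaks per source, called on merged immunoprecipitates against IN, read here as input, per the deposited peak names. Neither single-library values nor the RNase H1 treated libraries were analysed here, so the depth behind a peak and its loss under RNase H1 are unknown. Without replicate lists, no difference between the lists can be checked against a spread. HEPA1-6 is 1 tumour line, and nothing says that its paired libraries came from separate cultures or the liver libraries from separate animals.

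Translation begins when initiation factors place the small ribosomal subunit with the initiator tRNA on the start codon of an mRNA. The eIF4 factors bring the mRNA by its cap, eIF3 joins mRNA and ribosome, and eIF2 delivers the initiator tRNA. Elongation factors then deliver aminoacyl-tRNAs (eEF1A) and move the ribosome along (eEF2). Most of these genes are transcribed in nearly all cell types. An R-loop forms where a nascent RNA pairs back with its DNA template, so that hybrids are usually mapped over transcribed genes.

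The HEPA1-6 list held 28717 peaks and the other list 14908. The second list is called liver-labelled, because 6 of 6 genes that mark dividing cells held a peak in it and 4 of 12 hepatocyte markers did, against 6 of 6 and 3 of 12 in HEPA1-6. None of 9 markers of endothelial, stellate and biliary cells held a peak in either list, and of 3 macrophage markers Cd68 alone did, under the peak of its neighbour Eif4a1. The part of cell composition in the values below was not tested. The score of a peak is a whole number given by the authors, on a scale that is not stated, running from 10 to 29098 with a median of 21 in the HEPA1-6 list, and from 10 to 15543 with a median of 22 in the other. It describes and ranks peaks within a list, and heights are not compared between lists.

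Of the 71 translation factor genes, 60 held a HEPA1-6 peak, or 84.5% (95% Wilson interval 74.3% to 91.1%), where 42.0% of all protein-coding genes did. In the liver-labelled list 46 did, or 64.8% (interval 53.2% to 74.9%), where the share over all protein-coding genes was 29.7%. The intervals cover counting error only, and genes are not independent samples. The same 46 genes held a peak in both lists, against 27.8% of protein-coding genes. A peak in HEPA1-6 alone was seen at 14 members (19.7%, and 14.2% of all genes), and a peak in the liver-labelled list alone at none, as at 1.89% of all genes. No peak was seen at 11 members (15.5%, and 56.1% of all genes).

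The shares were above those of all genes in most classes of gene length. The members ranged from 2151 bp (Eif1) to 215308 bp (Eif4g3), with a median of 15330 bp against 17169 bp for all genes. With the 21887 genes cut into 4 classes at 5671, 17169 and 44339 bp, HEPA1-6 peaks lay at 9 of 13, 21 of 23, 22 of 26 and 8 of 9 members, from the shortest class to the longest. The shares were 69.2%, 91.3%, 84.6% and 88.9%, beside 23.9%, 46.6%, 49.6% and 47.9% of all genes. Liver-labelled peaks lay at 9 of 13, 16 of 23, 18 of 26 and 3 of 9 members. Those shares of 69.2%, 69.6%, 69.2% and 33.3% stood beside 17.6%, 32.3%, 33.4% and 35.3%, so the 9 longest members held liver-labelled peaks at about the share of other long genes.

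**Figure D1:**
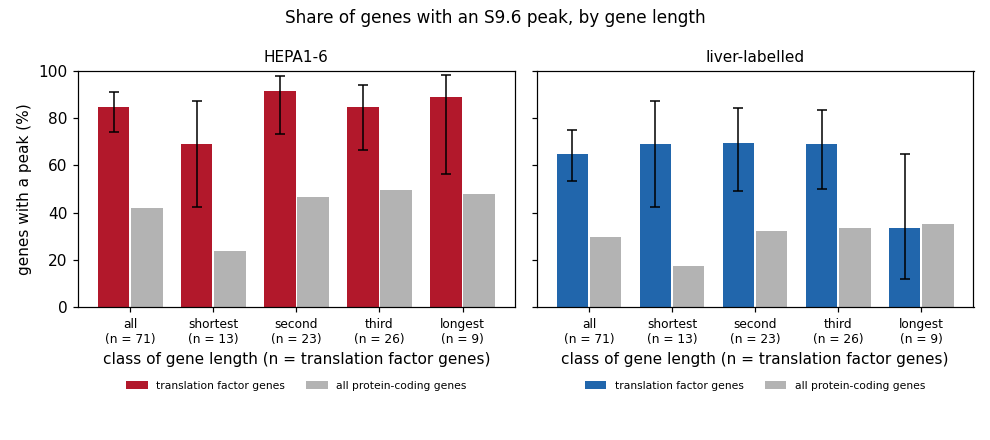
Percent of genes with an S9.6 peak (vertical axis) in 4 classes of gene length and over all lengths, for translation factor genes (coloured bars, with 95% Wilson intervals as error bars) and all protein-coding genes (grey). The coloured bars stand above the grey ones except in the longest class of the liver-labelled list, where 33.3% of 9 members compare with 35.3%.

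CpG-rich starts were more common among the members than among all genes. A start window of 300 bp was taken as CpG-rich when its observed over expected CpG exceeded 0.6 and its GC content exceeded 50%. Of the 55 members with a start window in the RefSeq table, 44 (80%) were CpG-rich, against 45.5% of all such genes. Among these, a HEPA1-6 peak lay at 39 (88.6%) and a liver-labelled one at 30 (68.2%), where 66.3% and 47.0% of all genes with a CpG-rich start did. Among the 11 members whose start was not CpG-rich, 8 (72.7%) and 7 (63.6%) held a peak, beside 22.4% and 15.4% of such genes overall.

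**Figure D2:**
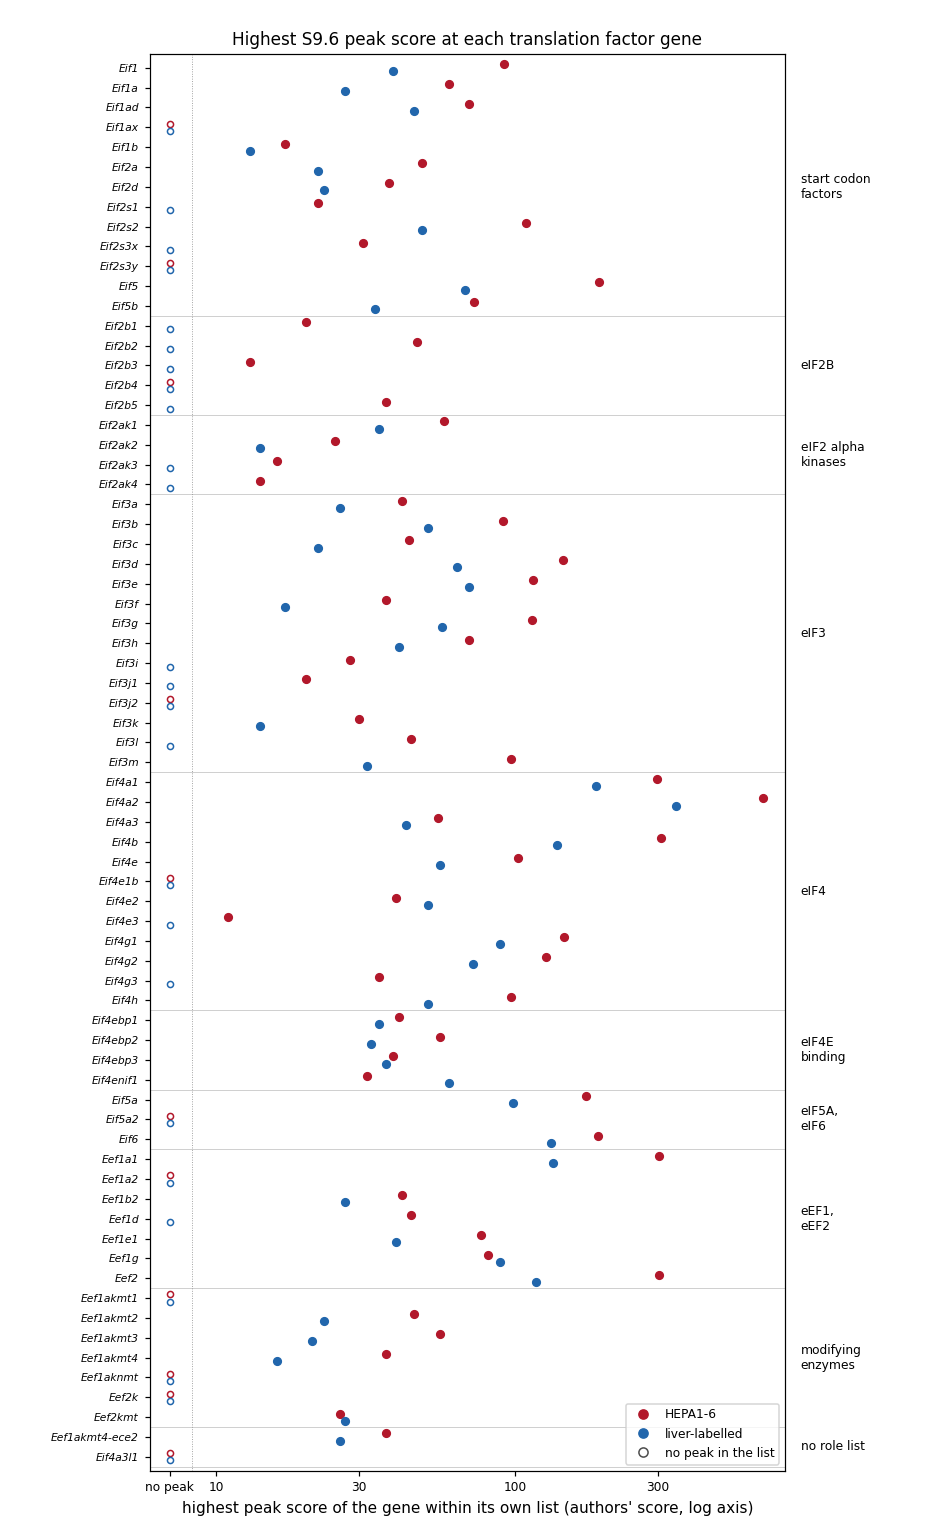
Highest peak score of each of the 71 translation factor genes in HEPA1-6 (red) and in the liver-labelled list (blue) on a log axis, grouped by role; open circles at the left mark genes with no peak in that list. Eif4a2 has the highest score in both lists (673 and 344), and the eIF2B group has no filled blue circle.

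The role group of initiator tRNA and start codon factors, in which Eif1ad was included, held HEPA1-6 peaks at 11 of 13 genes and liver-labelled peaks at 9. These counts by role, here and below, stand against 42.0% and 29.7% of all protein-coding genes, and groups of this size leave wide intervals. Eif1, Eif1a, Eif1ad, Eif1b, Eif2a, Eif2d, Eif2s2, Eif5 and Eif5b held peaks in both lists, Eif2s1 and Eif2s3x in HEPA1-6 only, and Eif1ax and Eif2s3y in neither. Eif1 encodes the factor that guards start codon choice, and its peak had the same first and last base in both lists, chr11:100319763-100324022, scoring 92 in HEPA1-6 and 39 among the liver-labelled peaks. That interval covers the whole gene body, which is the shortest of all members. Eif5 encodes the protein that triggers GTP hydrolysis by eIF2, and the peak over its start was also the same interval in both lists, chr12:111536831-111539466, with scores of 190 and 68. A second peak inside Eif5 scored 45 over 4106 bp in HEPA1-6 and 23 over 1174 bp in the liver-labelled list. The other members of this group with peaks in both lists, Eif1ad, Eif1b, Eif2a, Eif2d and Eif5b, had top scores of 17 to 73 in HEPA1-6 and 13 to 46 in the liver-labelled list. Eif5b, for the GTPase that joins the ribosomal subunits, carried 6 and 3 peaks. At Eif1b the liver-labelled peak lay in the flank only. At Eif1ad the only peak in each list carries the strand opposite to the gene and also touches Banf1.

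The subunits of eIF2 itself differed from each other. Eif2s1 encodes eIF2α, the subunit whose phosphorylation slows initiation, and held 4 HEPA1-6 peaks with scores of 15, 22, 17 and 17 and no liver-labelled peak. All of these lay inside the gene, the first of them 3382 bp from its start, and together they covered 14.3% of the body. Eif2s2, for eIF2β, held 3 peaks in each list, with top scores of 109 and 49, covering 53.3% and 31.2% of the body. Eif2s3x, the X-linked gene for eIF2γ, held 2 HEPA1-6 peaks (scores 31 and 23) and none in the liver-labelled list. Its Y-linked copy Eif2s3y held none in either list, and the labels do not give the sex of the mice. Among the genes for eIF1A, Eif1a on chromosome 18 held 3 HEPA1-6 and 2 liver-labelled peaks (top scores 60 and 27), and Eif1ax on X held none. How reads from near-identical copies such as these were placed is not stated, so a peak at one copy and none at the other is uncertain.

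The 5 genes of eIF2B, the exchange factor that recharges eIF2 with GTP, held no peak in the liver-labelled list (0 of 5, with a Wilson upper bound of 43.4%). The share over all protein-coding genes, 29.7%, lies inside that interval, so the count does not set eIF2B apart from genes in general. In HEPA1-6, 4 of 5 held one, and those peaks were few or low. Eif2b1 held 1 peak with a score of 20, which reaches into its neighbour Ddx55 and carries the strand opposite to Eif2b1. Eif2b2 held 1 peak of 331 bp with a score of 47, at 909 bp from its start. Eif2b3 held 3 peaks with scores of 13, 12 and 13. Eif2b5 held 1 peak with a score of 37, which begins just past the end of the gene and does not touch its body, and Eif2b4 held none. The Eif2b5 peak overlapped a liver-labelled peak that itself lay more than 1 kb from the gene.

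All 4 kinases that phosphorylate eIF2α held a HEPA1-6 peak, and 2 held a liver-labelled one. Eif2ak1, the heme-regulated kinase, had top scores of 58 and 35 in the 2 lists, in each case from a peak across its end that also covers Aimp2. Eif2ak2, the kinase activated by double-stranded RNA, held 4 HEPA1-6 peaks of 14 to 25 and 1 liver-labelled peak of 14, which ends at the same base as the HEPA1-6 peak it overlaps. Eif2ak3, the kinase of endoplasmic reticulum stress, held 1 HEPA1-6 peak with a score of 16 across its start. Eif2ak4, the kinase of amino acid starvation, held 3 HEPA1-6 peaks with scores of 14, 13 and 14, the last of them in the flank and shared with Srp14. Neither Eif2ak3 nor Eif2ak4 held a liver-labelled peak. The covered share of the 4 gene bodies was at most 13.1%, and these genes are 32069 to 86652 bp long.

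Of the 14 genes for eIF3 subunits, 13 had a peak in HEPA1-6 and 10 also had a liver-labelled one. Eif3a, Eif3b, Eif3c, Eif3d, Eif3e, Eif3f, Eif3g, Eif3h, Eif3k and Eif3m held peaks in both lists. Eif3h carried the most peaks of any member, 10 for HEPA1-6 and 14 for the liver-labelled list, over 78899 bp, with top scores of 70 and 41. Eif3e carried 6 peaks in each list, with top scores of 115 and 70, and 2 of its intervals, chr15:43252960-43258436 and chr15:43275170-43277213, were identical in both. Eif3b carried 5 and 3 peaks, covering 77.5% and 61.4% of its body. Eif3d, for the subunit that can itself bind the cap, had the highest HEPA1-6 score of the group (144, and 64 in the liver-labelled list). The other shared subunit genes, Eif3a, Eif3c, Eif3f, Eif3g, Eif3k and Eif3m, had top scores of 30 to 114 in HEPA1-6 and 14 to 57 in the liver-labelled list, and at Eif3m the liver-labelled peak lay in the flank only.

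The eIF3 genes with peaks in HEPA1-6 only were Eif3i, Eif3j1 and Eif3l. Eif3i held 2 peaks with scores of 12 and 28, the higher of which is shared with Tmem234. Eif3j1 held 4 peaks with scores of 20, 14, 13 and 17, the first of them across its start, covering 28.0% of the body. Eif3l held 4 peaks with scores of 32, 19, 45 and 18, covering 30.0% of the body. Eif3j2, the near copy of Eif3j1 on chromosome 18, held no peak in either list.

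The eIF4 genes held HEPA1-6 peaks at 11 of 12 and liver-labelled peaks at 9 of 12, and among them were 3 of the 5 highest scoring members of each list. Eif4a2, one of the genes for the RNA helicase eIF4A, had the highest score of all members in both lists. Its HEPA1-6 peak, chr16:23107516-23109669, scored 673 and the liver-labelled peak, chr16:23107958-23109669, scored 344. Both end at the same base, within the first 2201 bp of the gene, over the small nucleolar RNA gene Snord2, and they leave the rest of Eif4a2 without a peak. Eif4a1, the paralogous helicase gene, scored 297 and 186 in peaks that cover the whole body and run past its end over Cd68, and in HEPA1-6 also over Mpdu1. Eif4a3, the helicase of the exon junction complex, held 2 peaks in HEPA1-6 (scores 25 and 55) and 3 in the liver-labelled list (23, 43 and 19), covering 90.8% and 41.0% of its body. The related gene Eif4a3l1, placed in no role group, held none.

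Eif4b and Eif4h encode the proteins that stimulate the helicase. The peak over the start of Eif4b scored 307 (HEPA1-6) and 138 (liver-labelled) and had the same first base in both, 102072345 on chromosome 15. Inside Eif4b, HEPA1-6 had a peak of 12714 bp where the liver-labelled list had 3 separate ones of 259, 2045 and 2218 bp. Eif4h held 2 HEPA1-6 peaks, which covered 94.2% of its body, and 4 liver-labelled ones, which covered 44.2%, with top scores of 97 and 51.

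The cap-binding proteins spanned the range from high scores to no peak. Eif4e, for the main cap-binding protein, held 5 HEPA1-6 peaks with scores of 102, 23, 16, 58 and 26 and 2 liver-labelled peaks of 56 and 18, and the interval chr3:138550706-138551441 was the same in both lists. Eif4e2 held 3 peaks of 40, 36 and 35 in HEPA1-6 and 4 of 29, 17, 16 and 51 in the liver-labelled list. Eif4e3 held 1 HEPA1-6 peak of 234 bp with a score of 11, higher than only 0.47% of that list, and none in the liver-labelled list. Eif4e1b held none in either.

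Among the genes for the eIF4G scaffold proteins, Eif4g1 and Eif4g2 held peaks in both lists and Eif4g3 in HEPA1-6 only. Eif4g1 carried 5 HEPA1-6 peaks (47, 55, 35, 57 and 146) and 6 liver-labelled peaks (29, 19, 42, 22, 27 and 89), covering 73.0% and 36.2% of its body. In both lists the highest of them lay at the end of the gene, starting 19360 bp from the gene start. Eif4g2, whose product starts translation without binding the cap protein, held 3 peaks in each list, with top scores of 127 and 72. Eif4g3, the longest member, held 4 HEPA1-6 peaks (16, 35, 27 and 18) that covered 1.01% of its body.

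**Figure D3:**
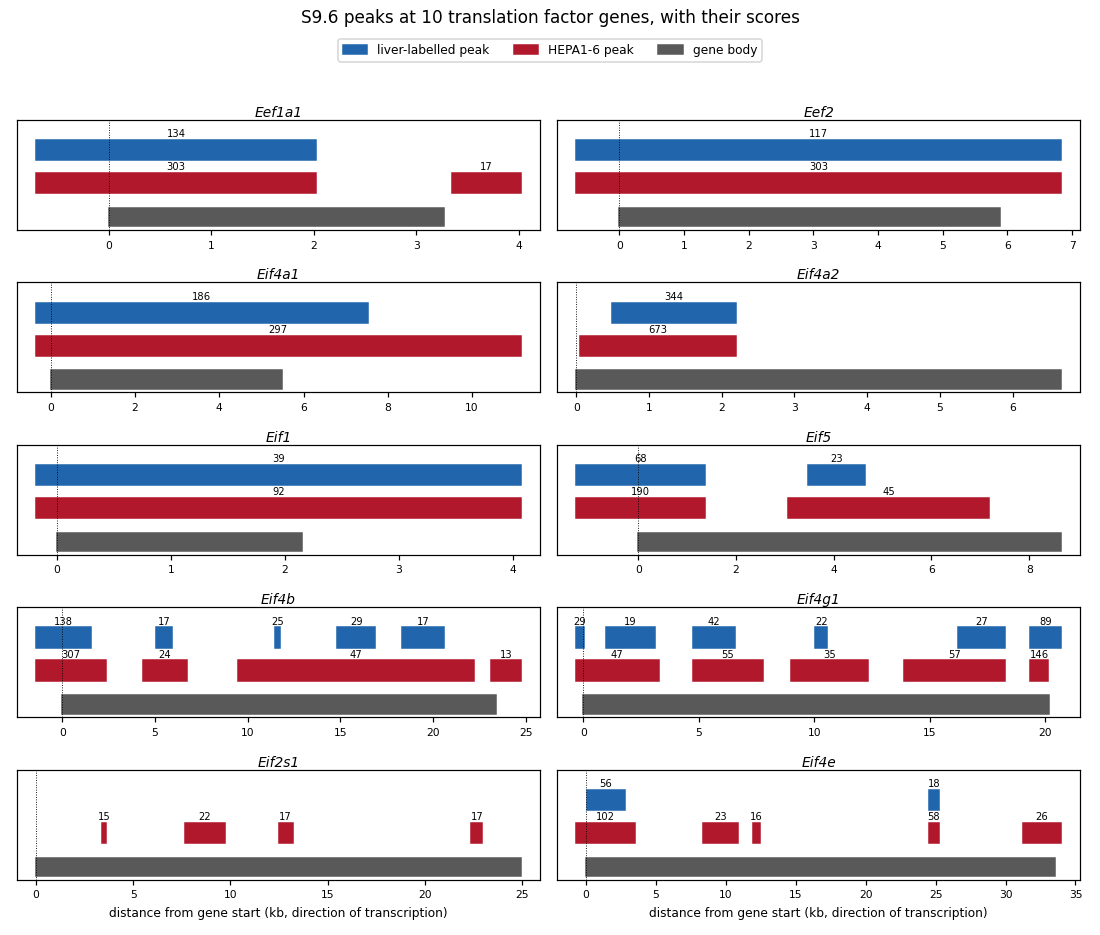
Peak intervals (HEPA1-6 red, liver-labelled blue) over the gene body (grey) of 10 translation factor genes, by distance from the gene start in kb in the direction of transcription, with the score above each peak. The peaks over Eef2 and Eif1 and those over the starts of Eef1a1 and Eif5 coincide between the lists, most HEPA1-6 peaks over Eif4b and Eif4g1 are longer than the liver-labelled ones they overlap (the last peak of Eif4g1 is shorter, 797 against 1344 bp), and Eif2s1 has HEPA1-6 peaks alone.

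The genes for proteins that bind eIF4E and hold it back, Eif4ebp1, Eif4ebp2, Eif4ebp3 and Eif4enif1, all held peaks in both lists. Eif4ebp1 held 4 peaks in each list, with top scores of 41 and 35, which covered 60.1% and 8.14% of its body. Eif4ebp2 held 4 HEPA1-6 peaks and 1 liver-labelled peak over its start, with top scores of 56 and 33. The HEPA1-6 peak at Eif4ebp3 (score 39) spans 14404 bp over Sra1 and Apbb3 too, and its liver-labelled peak (37) lies in the flank and also touches Sra1. Eif4enif1, for the transporter that carries eIF4E into the nucleus, held 6 HEPA1-6 peaks, of which 1 overlapped the liver-labelled list, and 2 liver-labelled peaks, the highest scoring 32 and 60.

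Eif5a and Eif6 held peaks in both lists. Eif5a encodes the hypusine-containing factor that helps the ribosome through difficult peptide bonds, and its peaks scored 173 and 98, covered the whole body and ended at the same base, 69922079 on chromosome 11. They carry the strand opposite to Eif5a and reach Gps2, which lies on the strand of the peaks, and in HEPA1-6 also Neurl4. Its paralog Eif5a2 held no peak. Eif6, for the factor that keeps the ribosomal subunits apart, lay under a HEPA1-6 peak of 19706 bp with a score of 189. In the liver-labelled list its highest score, 132, belongs to a peak that lies mostly over Mmp24 and BC029722 and covers 891 bp of Eif6, and a peak of 45 covers 4602 bp.

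The elongation factor genes held peaks at 6 of 7 genes in HEPA1-6 and at 5 in the liver-labelled list. Eef2, for the translocase, lay whole under 1 interval of 7500 bp that was the same in both lists, chr10:81175963-81183462, with scores of 303 and 117. Eef1a1, for the main eEF1A, had the peak chr9:78479703-78482438 in both lists, with scores of 303 and 134, which begins upstream of its start and reaches 2021 bp into the gene. HEPA1-6 had one more peak past the end of Eef1a1, with a score of 17 and the opposite strand. Eef1a2, the paralog used in muscle and neurons, held no peak in either list. Of the eEF1B subunits, Eef1b2 scored 42 and 27 at its highest. Eef1g scored 81 and 89, and its HEPA1-6 peak was the widest at any member (24560 bp, shared with Tut1). Eef1d held 3 HEPA1-6 peaks with scores of 45, 15 and 28 and no liver-labelled peak. Eef1e1, whose product belongs to the aminoacyl-tRNA synthetase complex, scored 77 and 40.

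The starts of 2 paralog pairs are shown because their members differ in peaks: Eef1a1 and Eif5a have a peak over this stretch in both lists (at Eif5a on the opposite strand), and Eef1a2 and Eif5a2 have none in either. Each line gives 180 bases of the RefSeq start-window table (GRCm38.p6), from 150 bases before the gene start of that table to 30 bases into the gene, 5′ to 3′ on the strand of the gene. Capitals mark runs of 4 or more G. The stretches are chr9:78481695-78481874 (minus strand) for Eef1a1, chr2:181156986-181157165 (minus) for Eef1a2, chr11:69921929-69922108 (minus) for Eif5a and chr3:28781127-28781306 (plus) for Eif5a2.
Eef1a1: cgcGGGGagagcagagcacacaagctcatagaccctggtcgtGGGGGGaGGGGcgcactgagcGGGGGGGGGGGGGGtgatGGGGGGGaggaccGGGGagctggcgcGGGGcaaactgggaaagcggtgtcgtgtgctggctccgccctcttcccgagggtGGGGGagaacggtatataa
Eef1a2: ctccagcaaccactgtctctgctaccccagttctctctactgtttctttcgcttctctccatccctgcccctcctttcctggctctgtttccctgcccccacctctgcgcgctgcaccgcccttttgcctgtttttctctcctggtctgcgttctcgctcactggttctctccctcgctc
Eif5a: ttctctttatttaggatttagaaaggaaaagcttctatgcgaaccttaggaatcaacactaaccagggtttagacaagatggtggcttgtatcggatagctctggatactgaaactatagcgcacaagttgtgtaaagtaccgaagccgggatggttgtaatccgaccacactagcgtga
Eif5a2: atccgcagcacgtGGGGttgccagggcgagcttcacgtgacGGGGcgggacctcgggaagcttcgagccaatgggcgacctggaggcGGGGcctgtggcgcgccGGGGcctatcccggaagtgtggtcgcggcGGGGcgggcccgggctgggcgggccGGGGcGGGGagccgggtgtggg
Eef1a1 held 8 such runs, the longest of 14 G, and Eif5a2 held 7, the longest of 4, while Eif5a and Eef1a2 held none. Runs of G were thus seen at 1 start with a peak and 1 without. Over the 55 members with a start window, GGGG on the strand of the gene was found in 39 windows of 300 bp (70.9%), against 71.0% over all genes, and CCCC in 44 (80%), against 69.2%. The G minus C skew, (G - C)/(G + C), had a median of -0.034 over the member windows (quartiles -0.111 and 0.050) and of 0.007 over all genes. In the 100 bp around the start the median was 0.032 in both sets. The median GC content was 61.3% in member windows and 56.3% in all.

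Enzymes that modify elongation factors held peaks at 4 of 7 genes in each list. These were the methyltransferase genes Eef1akmt2, Eef1akmt3, Eef1akmt4 and Eef2kmt, with top scores of 46, 56, 37 and 26 in HEPA1-6 and 23, 21, 16 and 27 in the liver-labelled list. Eef1akmt1, Eef1aknmt and Eef2k held none. In HEPA1-6 the peaks at Eef1akmt3 also touch Tsfm or Mettl1, and the peak at Eef2kmt touches Alg1. Those at Eef1akmt4 carry the opposite strand and touch its readthrough gene, the higher one also Camk2n2. Without peaks that touch another coding gene, Eef1akmt2 alone of the 4 methyltransferase genes kept a HEPA1-6 peak. In the liver-labelled list only Eef1akmt4 was lost. Eef2k, for the kinase that switches eEF2 off, spans 64578 bp, a length class in which 47.9% and 35.3% of all genes held a peak. The readthrough gene Eef1akmt4-ece2 shares the interval and peaks of Eef1akmt4 and is not independent of it.

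The 14 members with a peak in HEPA1-6 only had lower scores than those with peaks in both lists. Their highest HEPA1-6 score had a median of 25 (range 11 to 47), against 70 (range 17 to 673) for the 46 shared members. Their median covered share was 4.57% of the gene body, and at most 30.0%, against a median of 54.2%. They were also longer, with a median length of 24441 bp against 14192 bp for the shared members. Over members with a HEPA1-6 peak, the median covered share was 70.3% in the shortest class of gene length and 3.04% in the longest. The part of gene length in the difference in covered share was not tested. No covered share over all protein-coding genes is given for these groups. Over all protein-coding genes the same medians of the top score were 21 for the 3114 genes with a HEPA1-6 peak only and 45 for the 6077 with both.

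The peaks at members were wide. The 161 different HEPA1-6 peaks had a median width of 2054 bp (quartiles 934 and 4208 bp), against 1137 bp for peaks at all protein-coding genes, and the 107 liver-labelled ones 1637 bp (quartiles 824 and 2844 bp), against 957 bp. Their median score was 31 against 21 in HEPA1-6, and 27 against 22 in the liver-labelled list. In the upper 10% of their list by score stood 42 (26.1%) and 22 (20.6%) of them, where 9.45% and 9.23% of peaks at all coding genes did. A snoRNA gene lay under 6 HEPA1-6 and 5 liver-labelled member peaks (3.73% and 4.67%), against 0.395% and 0.503% of peaks at coding genes. The members concerned were Eef1b2, Eef2, Eif3g, Eif4a1 and Eif4a2 in both lists, and Eif4g1 in HEPA1-6. The snoRNA gene was counted anywhere under the peak, inside the member or not. At Eif3g the peaks carry the opposite strand, run over Ppan and cover 1989 bp (HEPA1-6) and 187 bp (liver-labelled) of Eif3g.

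Coverage of the gene body was larger in HEPA1-6 than in the liver-labelled list for most members, beside a list with wider peaks. Over the members with a peak, the median covered share was 38.5% in HEPA1-6 (quartiles 16.1% and 71.8%) and 24.4% in the liver-labelled list (quartiles 7.87% and 42.9%). Over all coding genes with a peak it was 15.4% and 5.84%, a comparison that was not matched for gene length. More than 50% of the body was covered at 25 members (41.7%, and 22.2% of all genes with a peak) in HEPA1-6 and at 10 (21.7%, and 11.5%) in the liver-labelled list. The whole body was covered at Eef1g, Eef2, Eif1, Eif4a1, Eif5a and Eif6 in HEPA1-6, and at Eef2, Eif1, Eif4a1 and Eif5a in the liver-labelled list. From the shortest class of gene length to the longest, the HEPA1-6 medians were 70.3%, 54.2%, 28.1% and 3.04%. The liver-labelled medians were 54.7%, 25.6%, 9.71% and 11%, the last of them over 3 genes. Covered shares over all coding genes are not given by length class.

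**Figure D4:**
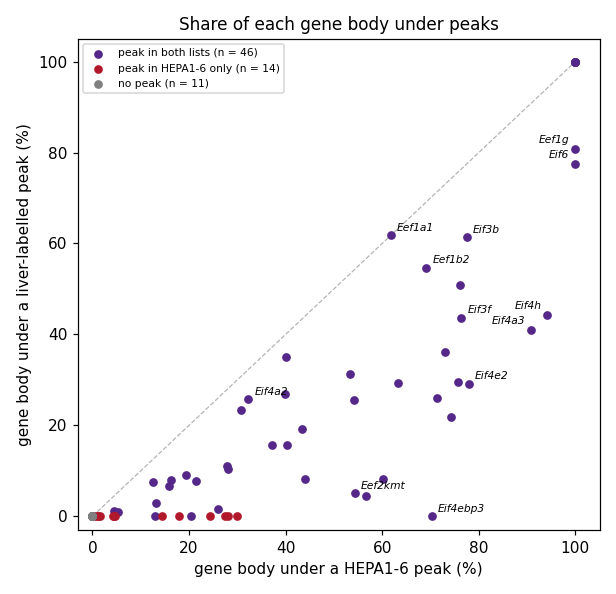
Percent of each gene body under HEPA1-6 peaks (horizontal axis) and under liver-labelled peaks (vertical axis), 1 point per translation factor gene, coloured by the lists in which it holds a peak; the dashed line marks equal shares. Most points lie below the line, Eef1a1 lies on it at 61.8%, and genes with a HEPA1-6 peak only lie on the horizontal axis at up to 30.0%.

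Peaks lay at both ends of the genes. Among the 55 members with a known strand, a HEPA1-6 peak came within 1 kb of the gene start at 29 (52.7%, where 24.5% of all genes did) and within 1 kb of the gene end at 33 (60.0%, against 23.8%). In the liver-labelled list 22 had one at the start (40.0%, against 16.7%) and 18 at the end (32.7%, against 11.8%). In HEPA1-6, 21 members had both, 8 the start only and 12 the end only. In the liver-labelled list 10 had both, 12 the start only and 8 the end only. Peaks were assigned by any overlap, and with the midpoint of the peak in its place the start counts were 13 and 14 and the end counts 16 and 10. No share over all genes is given for the midpoint counts. Along the members with a peak, the mean covered share in HEPA1-6 was 46.9% in the first 10% of the body, 34.2% at its lowest and 51.9% in the last 10% (33.1%, 23.9% and 36.0% over all genes). In the liver-labelled list it was 42.4% in the first 10%, 20.1% at its lowest and 31.1% in the last (25.7%, 14% and 21.1%). The genes compared here were not matched for length.

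**Figure D5:**
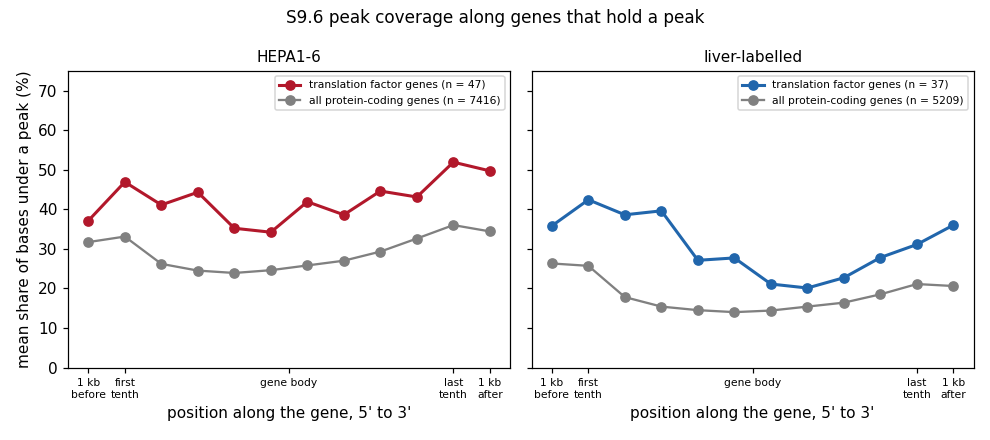
Mean percent of bases under a peak (vertical axis) in the 1 kb before the gene, in 10 equal parts of the gene body and in the 1 kb after it, 5′ to 3′, over translation factor genes with a peak (coloured; 47 genes for HEPA1-6, 37 for the liver-labelled list) and all protein-coding genes with one (grey). The coloured line stands above the grey one at each position in both lists, with its lowest value inside the gene body.

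Most liver-labelled peaks at these genes overlapped a HEPA1-6 peak, and few were the same interval. Of the 107 liver-labelled member peaks, 103 (96.3%, interval 90.8% to 98.5%) overlapped a HEPA1-6 peak, against 88.9% over all coding genes, while 81 of the 161 HEPA1-6 peaks (50.3%, interval 42.7% to 57.9%) had a liver-labelled counterpart, against 31.8%. Among the overlapping ones, 41 HEPA1-6 peaks (50.6%) and 43 liver-labelled peaks (41.7%) shared an edge with a peak of the other list, shares below those over all coding genes (55.8% and 46.2%). Of the same peaks, 8 in each list were identical to a peak of the other (9.88% and 7.77%). The share of identical peaks over all coding genes, counted by peak, is not given here. At each of the 46 shared members, 1 overlapping pair was taken, the one with the highest liver-labelled score and, in a tie, the highest HEPA1-6 score. Of these pairs, 4 (8.70%) were identical (Eef1a1, Eef2, Eif1 and Eif5), 19 (41.3%) shared 1 edge and 23 (50%) shared none, against 8.90%, 45.7% and 45.4% over 5842 protein-coding genes with such a pair. With the highest HEPA1-6 score first, a choice added after the data were seen, the counts were 4, 21 and 21.

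Many peak edges coincide with restriction sites. As background, the published S9.6 protocol that the labels cite cuts the DNA with a mixture of restriction enzymes, and its usual mixture is HindIII (AAGCTT), EcoRI (GAATTC), BsrGI (TGTACA), XbaI (TCTAGA) and SspI (AATATT), which are palindromes and read the same on both strands. A peak edge could be set against these letters only where it fell inside one of 27025 start windows, of which 27.7% hold at least 1 of the 5 sites. A single site lies in 7.36% (HindIII), 6.57% (EcoRI), 4.70% (BsrGI), 6.47% (XbaI) and 7.14% (SspI) of them. In HEPA1-6, 383 of 697 edges (54.9%, interval 51.2% to 58.6%) sat exactly at a cut, and in the liver-labelled list 269 of 637 (42.2%, interval 38.5% to 46.1%), where 0.115% of all positions in the windows are such a place. Of 7 edges of member peaks inside the windows, 6 sat at a cut, where the edges at Eif1 and Eif5a count once per list. The edges at a cut are shown with 27 reference bases from the plus strand (RefSeq start-window table, GRCm38.p6), in which capitals mark the site.
Eif1: cgcaggcggaccAAGCTTtccctcccc
Eif5a: ttcgcatagAAGCTTttcctttctaaa
Eif3g: tccaaaaaaAAGCTTcaaagaactttt
Eif5b: cctctaggtTCTAGAacccgggatccg
The stretch at Eif1 is chr11:100319750-100319776, and the peak begins in both lists at 100319763, after the first A of the HindIII site. The stretch at Eif5a is chr11:69922066-69922092, and both lists end their peak at 69922079, before the last T. At Eif3g (chr9:20898754-20898780) a HEPA1-6 peak ends at a HindIII site, and at Eif5b (chr1:37997931-37997957) a liver-labelled peak ends at an XbaI site. The end of a liver-labelled peak at Eif4g1, 20672731 on chromosome 16, had none of the 5 sites. An edge at a cut lies where a restriction fragment of the usual mixture would end, and whether the edges arose this way was not tested. The part of fragment ends in the covered shares and shared edges above was not tested.

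Most member peaks carried the strand of the gene, as far as the authors' strand goes, whose source is not stated. Of the gene and peak pairs with both strands known, 104 had the same strand in HEPA1-6 and 19 the opposite one (15.4%, and 12.7% over all coding genes), and 67 and 4 in the liver-labelled list (5.63%, and 16.2%). Of the 19 opposite pairs, 12 touched another coding gene (63.2%), against 11.5% of the same-strand pairs, and so did all 4 in the liver-labelled list, against 23.9%. The other gene lay on the strand of the peak in 10 of the 12 and in all 4. The rest are a 242 bp peak that touches only Eef1akmt4 and its readthrough gene Eef1akmt4-ece2, whose opposite peaks are all counted at both genes. Examples are Eif5a with Gps2, Eif1ad with Banf1 and Eif3g with Ppan, each of them opposite in both lists. For pairs that touch another gene, no share over all coding genes is given, so these counts are not read as particular to the members. Among the 46 pairs chosen by the liver-labelled score, 40 had the same strand in both lists and 6 had opposite strands (13%, against 20.1% over all genes with such a pair). These 6 were Eef1akmt4, Eef1akmt4-ece2, Eif1a, Eif2ak1, Eif2d and Eif2s2. With pairs chosen by the HEPA1-6 score there were 5, without Eif2d, whose other overlapping pair (38 and 18) lies on the strand of the gene in both lists. At Eif2s2 the pair ends at the same base, 154889555 on chromosome 2, with a score of 109 on the strand opposite to the gene in HEPA1-6 and of 49 on the strand of the gene in the liver-labelled list. At Eif1a the pair scored 60 and 27, and the strand of the gene is not in the table. At Eef1akmt4 the HEPA1-6 peak (37) is shared with Camk2n2, which lies on the strand of that peak, and the liver-labelled peak (16) carries the strand of Eef1akmt4. At Eif2d the pair with the higher liver-labelled score had a score of 22 on the opposite strand in HEPA1-6 and of 23 on the strand of the gene in the liver-labelled list.

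Neighbours share many of these peaks. Of the member peaks, 28 HEPA1-6 (17.4%) and 19 liver-labelled ones (17.8%) touched at least 1 more coding gene, against 6.70% and 8.46% of peaks at coding genes. Without such peaks, 47 members held a HEPA1-6 peak, 33 a liver-labelled one and 29 both. The share over all protein-coding genes without such peaks is not given here, so these counts have no background beside them. Among those lost in both lists were Eef2, Eif4a1 and Eif5a. Chromosome 15 holds 6 members (Eef1d, Eif3d, Eif3e, Eif3h, Eif3l and Eif4b), with 18.0% of the HEPA1-6 and 26.2% of the liver-labelled member peaks, and it holds 7.22% and 15% of all peaks. Without it, 54 of 65 members (83.1%, beside 41.5% of all genes) and 42 of 65 (64.6%, beside 28.7%) held a peak.

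Translation factor genes stood below the 77 cytosolic ribosomal protein genes, of which 76 (98.7%, interval 93.0% to 99.8%) held a HEPA1-6 peak and 74 (96.1%, interval 89.2% to 98.7%) a liver-labelled one. These Wilson intervals, which cover counting error only, do not overlap those of the translation factor genes. The families were not matched for gene length or CpG-rich starts, and no test between them was run. Of the 51 genes with proteasome symbols, 42 (82.4%) held a HEPA1-6 and 27 (52.9%) a liver-labelled peak, shares whose Wilson intervals (69.7% to 90.4%, and 39.5% to 65.9%) overlap those of the translation factor genes. Of 39 other genes with roles in translation that the symbol rule does not take in, such as release, recycling and mitochondrial factors, 34 (87.2%) and 26 (66.7%) did.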

How the data were processed

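DRIP-seq is the immunoprecipitation of RNA-DNA hybrids with S9.6 followed by sequencing. The authors deposited 1 BED list of peaks per source, with a whole-number score of 10 or more and a strand per peak, and no header. The score is the deposited value of the authors, on a scale that is not stated, and was used as given. The submitters' processing notes name CASAVA 1.8.2, cutadapt, Bowtie2, bedtools, SAMtools, MACS2 and the build mm10, with no role or order. Which libraries were merged, the peak thresholds and the source of the strand are not given in the sources used here. Per the labels' protocols, immunoprecipitates received more PCR cycles than inputs, and reads were paired.

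Peaks were laid over gene boundaries of RefSeq (GRCm38.p6) with Python 3.11.15, pandas 2.3.3, NumPy 2.4.6, SciPy 1.17.1 and Matplotlib 3.10.9. Coordinates are 1-based. The gene table holds neither exons nor strands, so peaks are not assigned to exons, introns or untranslated regions. Strands and start sequences came from the RefSeq start-window table, which matched 55 of 71 members and 17492 of 21887 genes. The 16 others are Eef1akmt1, Eef1akmt3, Eef1d, Eef1g, Eif1a, Eif2b3, Eif3e, Eif3h, Eif3i, Eif3j2, Eif4e1b, Eif4e3, Eif4ebp1, Eif4ebp3, Eif4g2 and Eif6. With 1 pooled list per source no test was made between sources, and the main counts stand beside the share over all protein-coding genes. Wilson intervals cover counting error only. The overlap functions were tested on simulated data.

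The members, role groups, marker lists and comparison families were chosen with earlier results of these data known. Values are given for every member with a peak in 1 list only, the 5 highest by score, by number of peaks and by covered share in each list, members whose overlapping pair with the highest liver-labelled score lies on opposite strands, and the paralog sets, with Eef2, Eef2k and Eif2s1. Neighbouring genes, members with a snoRNA gene under a peak and genes with edges at restriction sites are also named, chosen after their values were seen. The restriction sites were searched for after the edges were seen. The alternatives tried were other flanks, the midpoint of a peak, score thresholds, lists of equal length, peaks touching 1 gene, strand, other windows, the choice of the overlapping pair and the list without chromosome 15.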

Additional observations from a re-analysis of the deposited data

How the results depend on the processing

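Of 38 alternative settings that give a count, 33 left it within 1.5 times of the one reported, and the other 5 follow. With peaks that touch no other protein-coding gene, 29 members held a peak in both lists, against 46. With the midpoint of the peak in place of any overlap, the gene start had a HEPA1-6 peak at 13 members (against 29) and a liver-labelled one at 14 (against 22), and the gene end at 16 and 10 (against 33 and 18), a rule that by construction counts fewer peaks. With the 1 kb flanks included, the median covered share was 37.6% against 38.5% in HEPA1-6 and 25.3% against 24.4% in the other list, both within 1.5 times. The median G minus C skew was -0.034 in the 300 bp window and 0.032 in the 100 bp around the start, and the cause was not tested. Under the other settings, HEPA1-6 peaks lay at 42 (of 55, on the strand of the gene) to 60 members and liver-labelled peaks at 33 to 47. For these counts and those above, no share over all protein-coding genes under the changed setting is given. Leaving out chromosome 15, a setting chosen after seeing the data, gave 54 and 42 of 65. Choosing pairs by the HEPA1-6 score, also chosen after seeing the data, gave 5 pairs on opposite strands (against 6) and 21 with no shared edge (against 23). No paired analysis was possible because each source has 1 pooled list, and leaving out replicates was not run for the same reason. Depth is unknown, so the absence of a peak is not the absence of a hybrid.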
